A study of Sus scrofa domesticus with 2 samples.

Results

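The genes examined were 7 genes of fatty acid and triglyceride handling, FABP4, FABP5, CD36, LPL, GPIHBP1, ANGPTL4 and PPARG, chosen by name, with earlier results of these data known. Of these, 5 were named among the 22804 genes of the counts, and GPIHBP1 was found through a table of gene names that pairs it with its Ensembl identifier. CD36, a membrane receptor that takes up fatty acids, was not among the features by name and was not analysed here. Levels were compared between endothelial-like, collagen-high and macrophage-transcript cells of the domestic pig. The cells were primary ECs grown in culture from the lung and from the aorta, with 1 library for each tissue.

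The lung ECs came from a lobe perfused from its large vessel and the aorta ECs from the stretch of aorta close to the lung, in each case after digestion with collagenase. Both were grown in the same medium with fetal calf serum, without an added treatment, and were profiled by 10x Genomics 3′ v3 single-cell RNA sequencing. The methods describe the single-cell libraries of the study as coming from slaughterhouse pigs, hybrids of Landrace, Large White and Duroc, and do not repeat the breed, age or number of animals for the cultures. Since each tissue had 1 library, tissue, animal, culture and library cannot be told apart, no test between the tissues was possible, and no p-value is given.

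Triglycerides carried in lipoproteins are split at the capillary wall by lipoprotein lipase, the product of LPL. GPIHBP1 carries this enzyme across capillary endothelial cells and holds it at their luminal face, while ANGPTL4 inactivates it. The released fatty acids enter cells with the help of CD36 and are bound in the cytosol by the fatty acid binding proteins FABP4 and FABP5. PPARG is a nuclear receptor activated by fatty acids that drives the transcription of FABP4, LPL and ANGPTL4 in adipocytes and macrophages. In vivo, FABP4, CD36 and GPIHBP1 are known as genes of microvascular endothelium.

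Each value is a number of unique molecular identifiers (UMIs), 1 for each captured mRNA molecule, summed over the cells of a class and given per 1000000 UMIs of that class (CPM). Brackets hold the exact 95% interval, which covers counting error only. CPM were compared for the same gene between cells and not between genes, since 3′ counts are not scaled by length. Classes were rebuilt here from clusters and marker genes and may differ from those of the study. The aorta library had 955 cells after the limits on cells, with a median of 52080 UMIs, and the lung library had 5709 cells, with a median of 9463. In the aorta, 630 cells (66.0%) were endothelial-like and 141 (14.8%) collagen-high, at median depths of 54941 and 61245 UMIs. In the lung, 4953 cells (86.8%) were endothelial-like and 335 (5.87%) collagen-high, at 9587 and 10745 UMIs. The 14 endothelial markers summed to 3057 CPM in aorta and 3254 CPM in lung endothelial-like cells, against 112 and 409 CPM where collagen genes were high. The 12 collagen-high markers summed to 357 and 132 CPM in the endothelial-like cells, and to 12323 and 13586 CPM in the collagen-high cells.

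Macrophage-transcript cells were those with at least 2 UMIs of PTPRC (the pan-leukocyte antigen CD45), AIF1 and C1QB in sum. There were 19 in the lung (0.333%) and 5 in the aorta (0.524%). The 19 lung cells had 70 UMIs of PTPRC, 87 of AIF1 and 69 of C1QB, which the gate required in sum. All 18 genes of the macrophage list, which holds the gate genes, were detected in them and also in the lung endothelial-like cells. These genes summed to 12906 CPM in the 19 cells and to 405 CPM in the lung endothelial-like cells. The 5 aorta cells had 12 UMIs of AIF1 and none of PTPRC or C1QB, and 12 of the 18 macrophage genes were at 0, so the markers do not bear out a macrophage name for them. In the aorta, a further 63 cells formed a cluster with high ACTA2 and TAGLN, and 116 shallow cells were left unnamed. In the lung, 402 cells were left unnamed, among them 74 without the macrophage gate in a cluster led by macrophage genes. These 74 cells had the endothelial gene PECAM1 at 1236 CPM, the macrophage gene LYZ at 21.7 CPM and no UMI of C1QA. The 16 gated cells of that cluster had 401, 4995 and 717 CPM of these genes.

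FABP4 and FABP5 are neighbours on chromosome 4, 176621 bp apart, and ANGPTL4 lies on chromosome 2. The 250 bases before the annotated start of ANGPTL4 are shown because it was the member highest in endothelial-like against collagen-high cells. They were read from Sscrofa11.1, 5′ to 3′ on the strand of the gene, at chr2:70912893-70913142 (minus strand). TATAAA (the TATA box core), ACGTG (the hypoxia response core), AGGTCA (the nuclear receptor half-site) and the PPAR direct repeat, a pair of such half-sites 1 base apart, were searched on both strands, and capitals would mark a match.
ANGPTL4: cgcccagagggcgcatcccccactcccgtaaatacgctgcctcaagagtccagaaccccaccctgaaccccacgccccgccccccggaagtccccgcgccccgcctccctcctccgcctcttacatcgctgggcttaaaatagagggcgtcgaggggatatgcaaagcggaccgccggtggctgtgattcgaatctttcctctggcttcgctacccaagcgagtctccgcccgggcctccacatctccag
Bases G and C made up 65.2% of the window, and it held none of the 4 motifs. Of 20664 windows of the same length before protein-coding genes, 10.4% held TATAAA, 18.2% ACGTG, 12.3% AGGTCA and 0.0242% the direct repeat. These are letters only, and nothing was measured at this window.

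**Figure D1:**
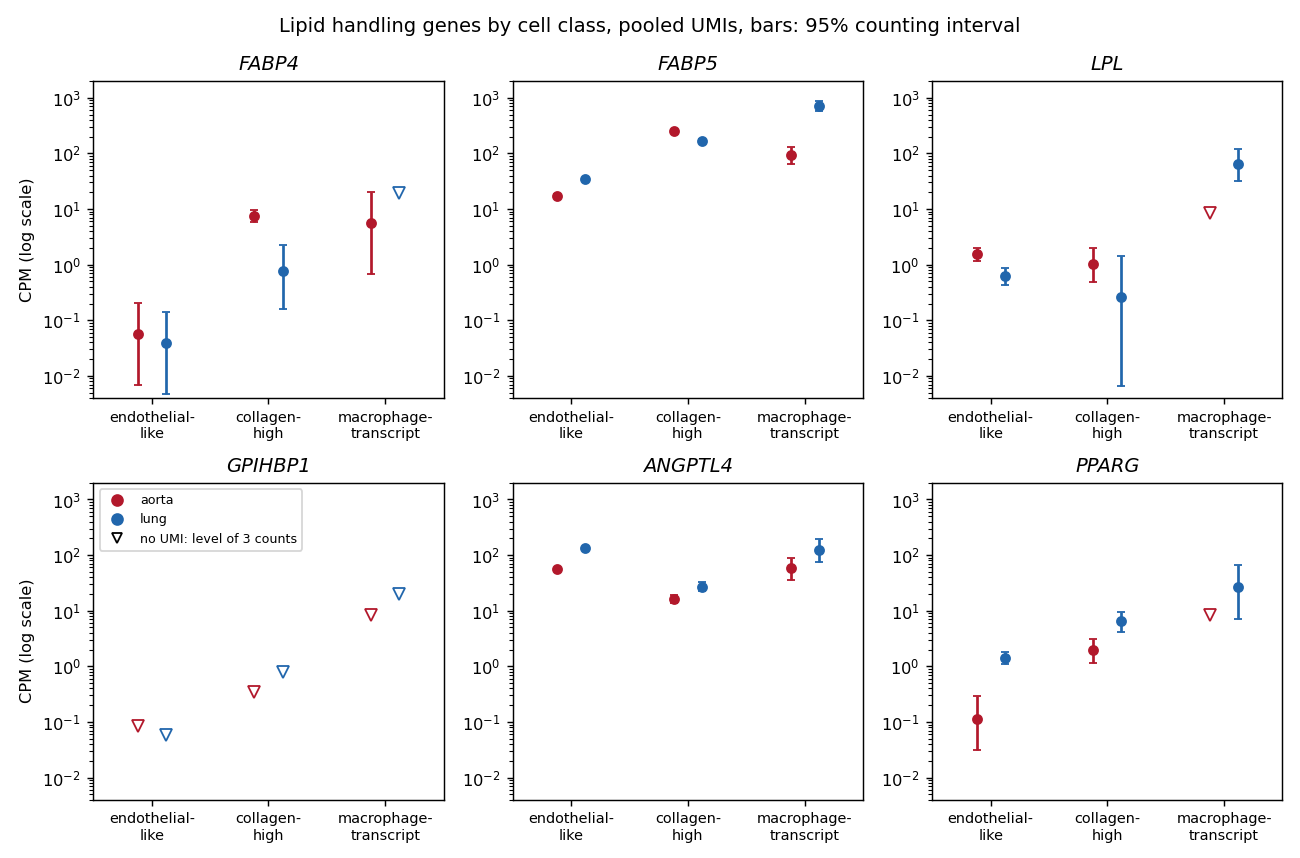
Level of each gene in CPM (log scale) in the endothelial-like, collagen-high and macrophage-transcript cells of the aorta (red) and lung (blue) libraries, from UMIs summed over each class. Points are pooled levels, bars the 95% counting interval, and open triangles mark classes without a UMI at the level that 3 counts would give. FABP5 was lowest in endothelial-like cells in each library, ANGPTL4 was lowest in collagen-high cells, and GPIHBP1 had no UMI in any of these classes.

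ANGPTL4 (chromosome 2, 70905767 to 70912892, minus strand, 7 exons) encodes the secreted inhibitor of lipoprotein lipase. It was higher in endothelial-like than in collagen-high cells of both libraries, and higher in lung than in aorta endothelial-like cells. In the lung it stood at 135 CPM (132 to 138, 6909 UMIs) in endothelial-like cells and at 27.2 CPM (22.2 to 32.9, 105 UMIs) in collagen-high cells. In the aorta it stood at 56.5 CPM (54.1 to 59.1, 1980 UMIs) in endothelial-like cells and at 16.3 CPM (13.7 to 19.2, 140 UMIs) in collagen-high cells. The collagen-high level was 0.201 of the endothelial-like level in the lung (0.164 to 0.244) and 0.288 of it in the aorta (0.241 to 0.342). The lung to aorta ratio in endothelial-like cells was 2.39 (2.28 to 2.52). With only the cells under 5000 detected genes, the limit of the methods, which leaves 246 aorta cells, this ratio was 5.02. The 5 aorta cells of the macrophage gate were at 58.4 CPM (36.2 to 89.3), which overlaps the aorta endothelial-like level, and 17 of their 21 UMIs lay in 1 cell. From high to low, the order was lung endothelial-like, lung macrophage-transcript, aorta macrophage-transcript, aorta endothelial-like, lung collagen-high and aorta collagen-high, and the intervals of neighbours overlapped down to the aorta endothelial-like level but not below it.

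The same pattern held in the share of cells with an ANGPTL4 UMI after each cell was thinned to 3000 UMIs. This share was 29.1% of 4939 lung endothelial-like cells (27.8 to 30.3) and 14.5% of 627 aorta endothelial-like cells (11.8 to 17.5), with 14 and 3 shallower cells left out. It was 7.62% of 328 lung collagen-high cells (4.99 to 11) and 5.07% of 138 aorta collagen-high cells (2.06 to 10.2), with 7 and 3 cells left out. The intervals of the collagen-high cells overlapped, while those of the endothelial-like cells did not. Before thinning, the share was 56.9% in lung and 69.8% in aorta endothelial-like cells, so its order between the tissues was the opposite at the unequal depths of the libraries. In the collagen-high cells it was 22.7% and 49.6% before thinning.

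ANGPTL4 also differed among endothelial-like clusters. In the lung the 7 clusters ran from 61.9 CPM to 253 CPM, with a median of 131. The highest was the cluster of 741 cells led by MGP and SLPI (241 to 264), followed by the cluster of 202 cells led by the interferon-induced genes CXCL10 and RSAD2 at 183 CPM (164 to 203). The lowest was the cluster of 623 cells led by mitotic genes such as CCNB3 and TOP2A (56.9 to 67.3). In the aorta the 5 clusters ran from 38.3 CPM to 95.2 CPM. The highest there was the cluster of 16 cells led by IFNB1 and CXCL10 (76.0 to 118), and the lowest were the clusters led by FBXO5 and E2F7 (38.3 CPM, 34.8 to 42.1) and by ASPM and CDC20 (42.3 CPM, 37.9 to 47.1), whose intervals overlapped. The cluster led by SLPI and CFD was at 75.5 CPM (70.6 to 80.6). Of the 7 lung clusters, 5 were above the highest aorta level, and the cluster led by CDC20 and PIMREG, at 85.2 CPM, was the other that was not. The lowest of the 5, led by histone genes (102 CPM, 94.9 to 110), overlapped the highest aorta cluster in its interval.

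FABP5 (chromosome 4, 55277831 to 55282585, minus strand, 4 exons) encodes the epidermal type fatty acid binding protein of the cytosol. It was lower in endothelial-like than in collagen-high cells of both libraries, and lower in them than in the macrophage-transcript cells of the lung. Endothelial-like cells had 17.4 CPM in the aorta (16.0 to 18.8, 609 UMIs) and 35.0 CPM in the lung (33.4 to 36.7, 1788 UMIs). Collagen-high cells had 253 CPM in the aorta (242 to 263, 2173 UMIs) and 169 CPM in the lung (156 to 182, 652 UMIs). The collagen-high level was 14.5 times the endothelial-like level in the aorta (13.3 to 15.9) and 4.82 times in the lung (4.40 to 5.28). The aorta ratio was 6.04 with the cells under 5000 genes and 8.56 with classes set from the marker UMIs of each cell. The lung to aorta ratio was 2.01 in endothelial-like cells (1.83 to 2.21) and 0.668 in collagen-high cells (0.611 to 0.730). In endothelial-like cells it was 1.18 with classes set from the marker UMIs of each cell, and 2.39 without the cell with the most FABP5 UMIs of each class, since 1 aorta cell held 100 of the 609 UMIs. The 5 aorta cells of the macrophage gate had 94.6 CPM (65.5 to 132), and 30 of their 34 UMIs lay in 1 cell that also had 688 UMIs of COL1A1. From high to low, the order was lung macrophage-transcript, aorta collagen-high, lung collagen-high, aorta macrophage-transcript, lung endothelial-like and aorta endothelial-like, and no neighbours overlapped in their intervals. The first place rests on 1 cell. Without the richest cell of each class the lung macrophage-transcript level was 239 CPM, below aorta collagen-high cells at 248 CPM. The whole cluster led by macrophage genes, with its 74 cells outside the gate, was at 165 CPM.

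After thinning to 3000 UMIs, 54.3% of aorta collagen-high cells (45.7 to 62.8) and 37.5% of lung collagen-high cells (32.2 to 43.0) had a FABP5 UMI. In endothelial-like cells the share was 3.67% in the aorta (2.34 to 5.45) and 9.19% in the lung (8.40 to 10.0). Before thinning, 95% and 75.2% of collagen-high and 35.6% and 25.5% of endothelial-like cells had a UMI in the aorta and lung. The 63 aorta cells with high ACTA2 and TAGLN, genes of the smooth muscle cytoskeleton, had 331 CPM of FABP5 (270 to 402, 101 UMIs) and 1 UMI of ANGPTL4. Their median depth was 3854 UMIs, and their median share of mitochondrial UMIs was 0.0935%, against 6.30% in aorta endothelial-like cells. The part of these values in the FABP5 level was not tested. Among endothelial-like clusters FABP5 ran from 1.13 to 22.6 CPM in the aorta and from 20.1 to 45.0 CPM in the lung. The lowest aorta value rests on 1 UMI in the cluster of 16 cells led by IFNB1 and CXCL10 (0.0287 to 6.32). The lowest lung cluster was the one led by MGP and SLPI, the cluster with the highest ANGPTL4, and the highest lung clusters were those led by DTL and CDC6 (45.0 CPM, 40.1 to 50.3) and by histone genes (43.1 CPM, 38.4 to 48.3).

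**Figure D2:**
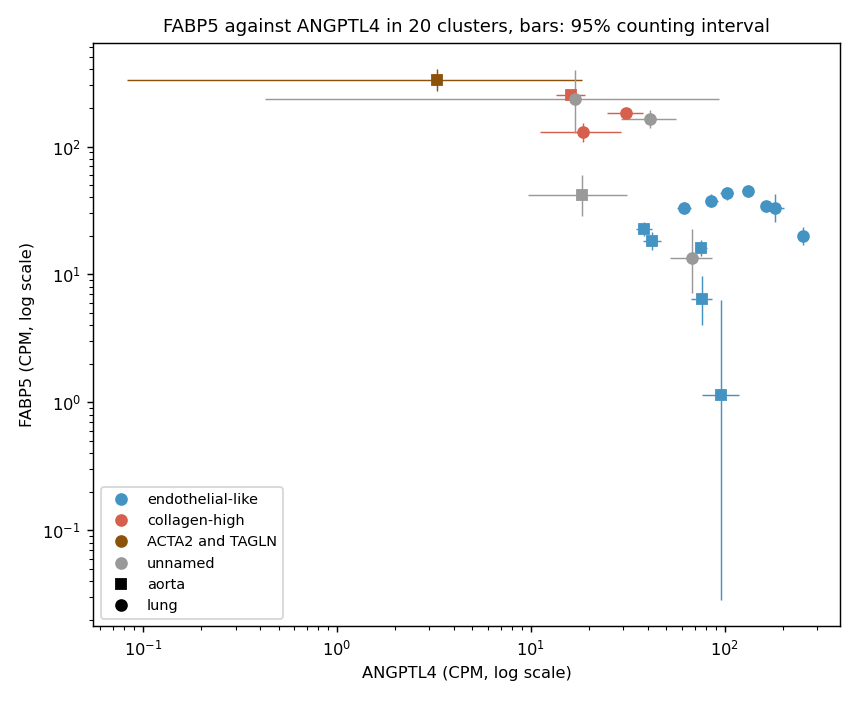
FABP5 against ANGPTL4, both in CPM on log axes, in 20 clusters of the aorta (squares) and lung (circles), coloured by class, with 95% counting intervals; 1 aorta cluster without an ANGPTL4 UMI is not drawn. Collagen-high clusters lie at 129 to 253 CPM of FABP5 and at most 30.8 CPM of ANGPTL4, and endothelial-like clusters at no more than 45.0 CPM of FABP5 and at least 38.3 CPM of ANGPTL4.

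The endothelial-like and collagen-high clusters did not overlap in either gene. The collagen-high clusters were the aorta cluster at 253 CPM of FABP5 and 16.1 CPM of ANGPTL4, the lung cluster led by ACTG2 and COL6A1 at 184 and 30.8 CPM, and the lung cluster led by WT1 and IGFBP5 at 129 and 18.6 CPM. Over the 20 clusters with 30 or more cells, Pearson's r between log2(CPM + 1) of FABP5 and ANGPTL4 was -0.52, and -0.58 over the 15 of these that were not shallow. The clusters share 2 libraries and differ in depth, so this is a description only. Among 7843 genes, those most like FABP5 over the 20 clusters were POLE4 (r = 0.89), SHISA4 (0.87) and C1orf21 (0.87). Those most like ANGPTL4 were SMAD1 (0.94), ZEB1 (0.91) and B4GALT1 (0.91).

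Against all genes, the members were read as follows. In lung over aorta endothelial-like cells, 1.31% of the 7805 genes at 10 CPM or more in either class were at least 2-fold higher and 3.52% at least 2-fold lower. FABP5 and ANGPTL4, the 2 members that reached 10 CPM, were both higher, FABP5 at the edge of the 2-fold limit. In lung collagen-high over endothelial-like cells, 7.26% of genes were higher and 10.1% lower, with FABP5 among the first and ANGPTL4 among the second. In the aorta the shares were 8.08% and 13.2%, again with FABP5 higher and ANGPTL4 lower. In lung macrophage-transcript over endothelial-like cells, 16.9% of genes were higher and 19.1% lower. There, 4 members reached 10 CPM, of which FABP5, LPL and PPARG were higher and none was lower. LPL (0.627 CPM) and PPARG (1.43 CPM) were under 10 CPM in lung endothelial-like cells and reached it only in the macrophage-transcript cells. Their call as higher was therefore fixed by the limit and adds no support.

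FABP4 (chromosome 4, 55096400 to 55101209, plus strand, 4 exons) encodes the fatty acid binding protein of adipocytes, macrophages and microvascular endothelium. It was near zero in endothelial-like cells of both libraries, and the UMIs it had lay mostly in aorta collagen-high cells. There were 2 UMIs in 630 aorta endothelial-like cells (0.0571 CPM, 0.00692 to 0.206) and 2 UMIs in 4953 lung endothelial-like cells (0.0392 CPM, 0.00474 to 0.141). In the aorta collagen-high cells there were 64 UMIs in 32 of 141 cells (7.44 CPM, 5.73 to 9.50), at most 8 in a cell. These were 74.4% of the FABP4 UMIs of the aorta library, where collagen-high cells held 19.0% of all UMIs. Of the collagen-high cells 22.7% had a FABP4 UMI (16.1 to 30.5), against 0.317% of endothelial-like cells (0.0385 to 1.14). The ratio to endothelial-like cells was 130 with a counting interval of 34.6 to 1098, and it was 15.7 where the shallow clusters were counted as endothelial-like and 21.0 with a limit of 10% on mitochondrial UMIs. The unnamed aorta cells of these shallow clusters, which met the endothelial rule by their markers, stood at 16.1 CPM (9.02 to 26.6). Their 15 UMIs lay in 2 of 116 cells, 10 of them in 1 cell. Lung collagen-high cells had 3 UMIs in 335 cells (0.776 CPM, 0.160 to 2.27), 0.104 of the aorta level (0.0210 to 0.319). None of the 19 lung macrophage-transcript cells had a FABP4 UMI, which allows a level of up to 19.7 CPM. The 5 aorta cells of the gate had 2 UMIs, both in the cell rich in COL1A1. Of the 8 adipocyte genes in the files, 5 had UMIs in aorta endothelial-like cells (83.1 CPM in sum), 5 in lung endothelial-like cells (66.0 CPM), 4 in aorta collagen-high cells (41.8 CPM) and 3 in lung collagen-high cells (21.0 CPM). In the endothelial-like cells of either library only CFD reached 10 CPM, a gene that led an aorta endothelial-like cluster with SLPI. The defining genes ADIPOQ, LEP and ADRB3 were at 0 in all of these cells, and the part of the others in the FABP4 level was not tested.

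GPIHBP1 (chromosome 4, 1253401 to 1256921, minus strand, 4 exons) encodes the capillary carrier of lipoprotein lipase. It had no UMI among the 955 aorta cells and 2 UMIs in the lung library, both in the cluster led by macrophage genes, in cells outside the macrophage gate. The 74 cells of that cluster outside the gate had PECAM1 at 1236 CPM and no UMI of C1QA. That cluster met the endothelial rule and was left unnamed by the added macrophage condition. The class of lung endothelial-like cells therefore leaves these UMIs out. A count of 0 allows up to 0.0857 CPM in aorta and 0.0587 CPM in lung endothelial-like cells. Of the 12 capillary genes in the files, GPIHBP1 and FABP4 among them, 7 had UMIs in the endothelial-like cells of each library, with sums of 197 CPM in the aorta and 234 CPM in the lung. Only 2 of them, RGCC and KIT, reached 10 CPM in the endothelial-like cells of either library. GPIHBP1, CA4, APLNR, BTNL9 and MEOX2 were at 0 in both.

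LPL (chromosome 14, 4104761 to 4134964, plus strand, 10 exons) encodes lipoprotein lipase. Its level was low in endothelial-like and collagen-high cells and higher in the lung macrophage-transcript cells. Endothelial-like cells had 1.54 CPM in the aorta (1.16 to 2.01, 54 UMIs in 30 cells) and 0.627 CPM in the lung (0.429 to 0.884, 32 UMIs in 30 cells), a lung to aorta ratio of 0.406 (0.254 to 0.641). The ratio was 0.906 with classes set from the marker UMIs of each cell and 0.846 with the cells under 5000 genes. Collagen-high cells had 1.05 CPM in the aorta (0.478 to 1.99, 9 UMIs) and 0.259 CPM in the lung (0.00655 to 1.44, 1 UMI), and their intervals overlapped those of endothelial-like cells. With classes set from the marker UMIs of each cell, the aorta ratio of collagen-high to endothelial-like cells was 2.42, against 0.678 (0.294 to 1.38) with clusters. The 19 lung macrophage-transcript cells had 10 UMIs in 5 cells (65.7 CPM, 31.5 to 121), 105 times the lung endothelial-like level (46.0 to 219), and none was seen in the 5 aorta cells of the gate. Part of the 3′ end of the LPL mRNA is shared with other places: 188 stretches of at least 100 bases elsewhere in the genome matched it there at 90% identity or more. Reads from there may not be assigned to LPL. No such stretch was found for the other 5 genes with counts.

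PPARG (chromosome 13, 68301566 to 68433951, plus strand, 7 exons) encodes the lipid-activated nuclear receptor. It was higher in collagen-high than in endothelial-like cells, and higher in the lung than in the aorta, at low counts throughout. Endothelial-like cells had 0.114 CPM in the aorta (0.0311 to 0.292, 4 UMIs) and 1.43 CPM in the lung (1.12 to 1.80, 73 UMIs), a ratio of 12.5 (4.68 to 47.1). Collagen-high cells had 1.98 CPM in the aorta (1.15 to 3.16, 17 UMIs) and 6.47 CPM in the lung (4.19 to 9.55, 25 UMIs), a ratio of 3.28 (1.70 to 6.46). Collagen-high cells exceeded endothelial-like cells by a ratio of 4.53 in the lung (2.75 to 7.22) and 17.3 in the aorta (5.64 to 70.6). The 19 lung macrophage-transcript cells had 4 UMIs in 4 cells (26.3 CPM, 7.17 to 67.3), and the 5 aorta cells of the gate had none, which allows up to 8.35 CPM. Among the other classes the order was lung macrophage-transcript, lung collagen-high, aorta collagen-high, lung endothelial-like and aorta endothelial-like. The intervals of the first pair and of aorta collagen-high and lung endothelial-like cells overlapped.

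In the macrophage-transcript cells of the lung, FABP5 stood at 717 CPM (588 to 864, 109 UMIs in 11 of 19 cells), 20.5 times the endothelial-like level (16.7 to 24.8). Of these UMIs 75 lay in 1 cell, the one with the most UMIs of PTPRC, AIF1 and C1QB. With the cell richest in FABP5 left out of each class, the ratio was 6.86. It was 7.63 with the gate set at 1 UMI, 26.7 with the gate set at 5 UMIs and 4.71 for the whole cluster led by macrophage genes. For that cluster the ratio was 20.3 for LPL, 4.44 for PPARG and 0.304 for ANGPTL4. Of its 90 cells, 74 were outside the gate, with PECAM1 at 1236 CPM and FABP5 at 64.0 CPM. The 16 inside the gate had 401 and 879 CPM, so the cluster ratios describe mostly PECAM1-rich cells. ANGPTL4 in the 19 gated cells was at 125 CPM (75.2 to 195, 19 UMIs), 0.923 of the endothelial-like level (0.556 to 1.44), and 12 of the 19 UMIs lay in 1 cell. Without the richest cell of each class that ratio was 0.373. The endothelial marker PECAM1 was present in 8 of the 19 cells, and all ANGPTL4 UMIs lay in these 8. The 11 cells without a PECAM1 UMI had 94 UMIs of FABP5 in 6 cells, 8 of LPL in 4 cells and 3 of PPARG in 3 cells. The split by PECAM1 was made after the values were seen.

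**Figure D3:**
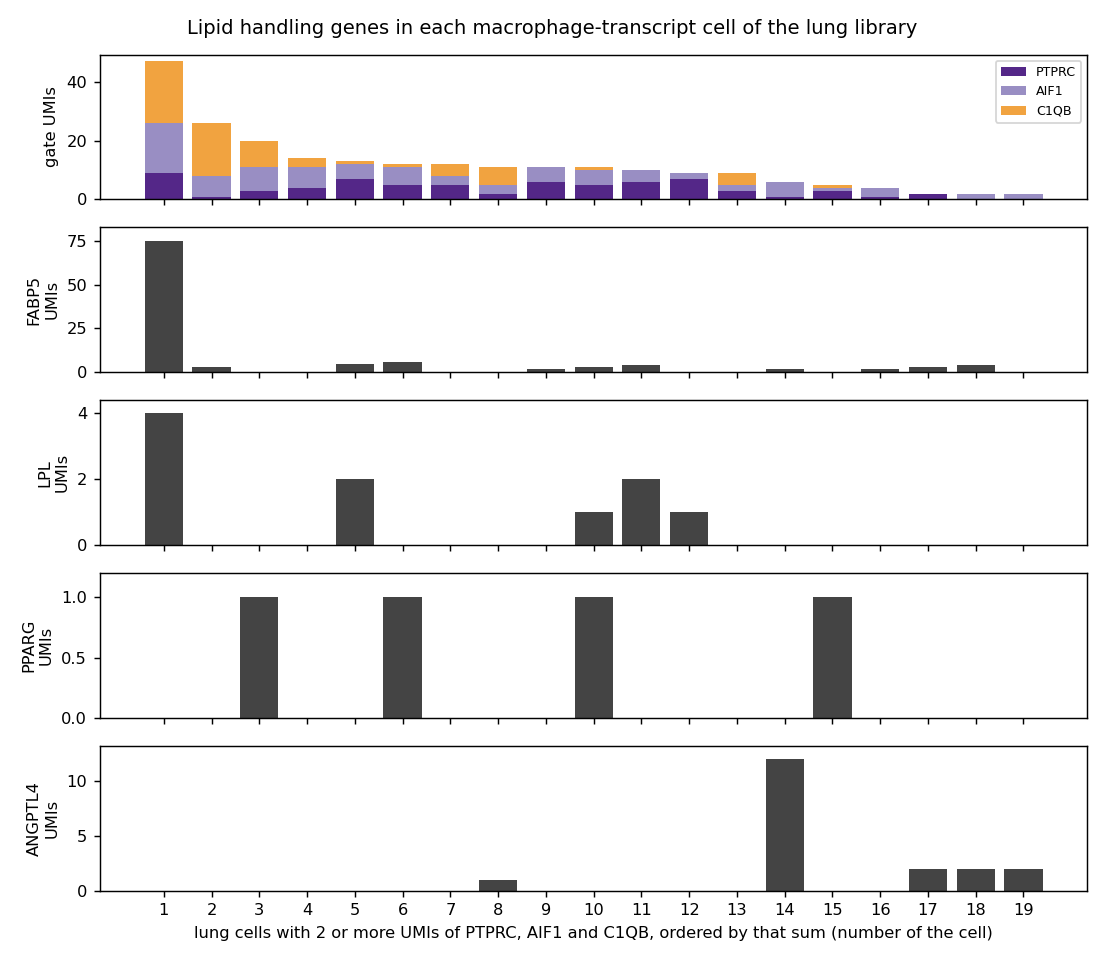
UMIs in each of the 19 lung cells with 2 or more UMIs of PTPRC, AIF1 and C1QB, ordered by that sum. The top panel stacks the 3 gate genes and the lower panels show FABP5, LPL, PPARG and ANGPTL4 as bars of UMIs per cell. Cell 1 has 75 FABP5 UMIs and cell 14 has 12 ANGPTL4 UMIs, and no cell has more than 4 LPL UMIs or more than 1 PPARG UMI.

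Around these members, 9 lists of lipid genes were examined, with a gene counted as higher or lower at 2-fold or more and 10 CPM or more. On the list of intravascular lipolysis, more genes were higher than lower in collagen-high cells. Over all genes more were lower than higher (10.1% against 7.26% in the lung and 13.2% against 8.08% in the aorta). In the lung, 5 of the 8 genes that reached the limit were higher and ANGPTL4 was lower, with a median log2 ratio of 1.94 against 0.00 over all genes. Of the higher genes, LIPG, APOE, PCSK6 and SDC1 reached 10 CPM only through the collagen-high cells. Their direction, which also enters the median, was thus fixed by the limit. In the aorta, 3 of 7 were higher and ANGPTL4 was again lower, with a median of 0.82 against 0.01. These 3, LIPG, SDC1 and PCSK6, also reached 10 CPM only through the collagen-high cells. Their direction was thus fixed by the limit there too, and it enters the median. LIPG, the endothelial lipase, was at 77.9 CPM in lung collagen-high and 5.74 CPM in lung endothelial-like cells, a ratio of 13.6 (11.5 to 16.0), and the aorta ratio was 16.4 (14.3 to 18.7). SDC1, a proteoglycan that binds lipases and lipoproteins, was at 20.7 times the endothelial-like level in lung (17.0 to 25.2) and 5.15 times in aorta collagen-high cells (4.36 to 6.09).

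Of the PPAR target genes, more were lower than higher in collagen-high cells, as was so over all genes (10.1% against 7.26% in the lung and 13.2% against 8.08% in the aorta). In the collagen-high cells of the lung, 1 of 12 was higher and 5 lower, with a median log2 ratio of -0.68 against 0.00 over all genes, and in those of the aorta 2 were higher and 3 lower, with a median of -0.53 against 0.01. PLIN2, a coat protein of lipid droplets, was the higher one in both libraries, 4.15 times in the lung (3.53 to 4.87) and 5.01 times in the aorta (4.47 to 5.63). PDK4, a kinase that holds back pyruvate oxidation, was at 58.0 CPM in aorta endothelial-like cells and 0.116 CPM (1 UMI) in aorta collagen-high cells, a ratio of 0.00200 (5.07e-05 to 0.0112). In the lung it was at 13.0 and 0.776 CPM, a ratio of 0.0597 (0.0123 to 0.175), and the lung to aorta ratio in endothelial-like cells was 0.224 (0.205 to 0.245), opposite in direction to ANGPTL4. TXNIP, which binds thioredoxin and limits glucose uptake, was 0.226 (0.134 to 0.359) and 0.195 (0.152 to 0.246) of the endothelial-like level in lung and aorta collagen-high cells. In both libraries PDK4 and TXNIP reached 10 CPM only through the endothelial-like cells. Their call as lower in collagen-high cells, which also enters the medians, was thus fixed by the limit. Of 12 PPAR target genes, ANGPTL4 was higher in lung than in aorta endothelial-like cells, and PDK4 and TXNIP were lower. Over all genes in that comparison, 1.31% were higher and 3.52% lower.

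Between lung and aorta endothelial-like cells, at most 1 gene was higher and at most 1 lower in each of the lists of fatty acid uptake, lipoprotein receptors, lipid droplets, oxidation, synthesis, lipid export and PPAR factors. From 2 genes (lipid export) to 21 genes (oxidation) of a list reached 10 CPM. Over all genes that did, 1.31% were higher and 3.52% lower. APOA1, the main protein of high density lipoprotein, was the export gene that was higher in the lung, at 704 against 350 CPM in the aorta (ratio 2.01, 1.97 to 2.05), and was 0.115 and 0.0518 of these levels in the collagen-high cells. MGLL, which splits monoglycerides, was higher in lung endothelial-like cells (ratio 2.02, 1.87 to 2.18) and was 0.148 and 0.166 of the endothelial-like level in lung and aorta collagen-high cells. SCD, the stearoyl-CoA desaturase, was lower in the lung (ratio 0.453, 0.423 to 0.485). ACAA1, a peroxisomal thiolase, was higher in lung (3.13, 2.61 to 3.75) and aorta (2.32, 1.98 to 2.71) collagen-high cells.

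Further genes of the lists, named by the size of their ratios, differed between the 19 lung macrophage-transcript cells and the lung endothelial-like cells. Over all genes at 10 CPM or more in that comparison, 16.9% were at least 2-fold higher and 19.1% lower. APOE, an apolipoprotein of lipid export, was at 2393 CPM against 1.17 CPM in lung endothelial-like cells, a ratio of 2037 (1547 to 2724). UCP2, an uncoupling protein of the inner mitochondrial membrane, was 115 times higher (81.4 to 160), and LIPA, the lysosomal acid lipase, 30.0 times (20.4 to 42.9). MARCO, a scavenger receptor of macrophages, was at 72.3 CPM and had 1 UMI in the lung endothelial-like cells. PLIN2 was 5.77 times higher (2.87 to 10.4), RXRA, the partner of PPARG in its dimer, 5.11 times (2.54 to 9.20), SCD 5.09 times (3.14 to 7.81) and ELOVL7, a fatty acid elongase, 13.6 times (5.78 to 27.3). ELOVL1, another elongase, was lower, at 0.192 of the endothelial-like level (0.0232 to 0.693, 2 UMIs).

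**Figure D4:**
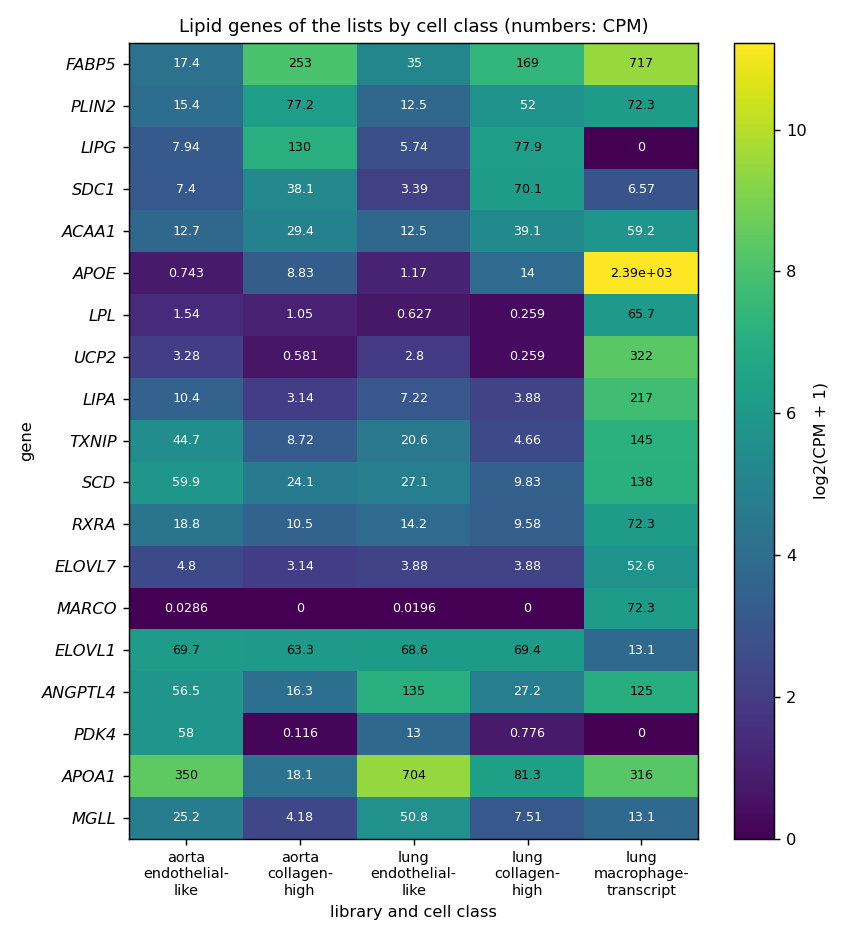
Level of the 19 genes that the naming rule took from the lipid gene lists, as log2(CPM + 1) in colour and as CPM in numbers, in the endothelial-like and collagen-high cells of both libraries and the macrophage-transcript cells of the lung. LIPG and SDC1 are highest in collagen-high cells, PDK4, APOA1 and MGLL in endothelial-like cells, and APOE, UCP2 and LIPA in the macrophage-transcript cells.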

How the data were processed

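Cultured pig aorta ECs and lung ECs were measured by droplet-based single-cell RNA sequencing, 1 library each. The deposited values were raw UMI counts of each gene in each barcode, which the authors made with Cell Ranger 3.0.2 on Sscrofa11.1, per the submitters' processing notes. The totals were 46080859 UMIs in 1185 aorta barcodes and 57213236 in 5946 lung barcodes, and 5 barcodes occurred in both. The genes, lists and rules were chosen with earlier results of these data known.

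Barcodes were kept above 200 detected genes, where 12 mitochondrial genes held less than 30% of the UMIs. The upper limit of 5000 genes in the methods was an alternative, since it leaves 246 aorta cells. Each library was clustered with Seurat 5.3.0 in R 4.3.3 (2000 variable genes less the markers and members, 20 components, resolution 1). A gene was raised at 20 CPM and 2-fold over the rest. Clusters were collagen-high where COL1A1 and COL1A2 were raised, and endothelial-like where at least 3 markers, and no fewer than 0.5 of those detected, reached 0.25 of their level in the highest cluster. Of the clusters that met the endothelial rule, those under 1/3 of the median depth of the library without an endothelial marker among the 10 leading genes, and a cluster with at least 2 of PTPRC, AIF1 and C1QB raised, were left unnamed. The ACTA2 and TAGLN cluster was as shallow and kept its name, with ACTA2 among its leading genes. The depth and macrophage conditions were added after the data were seen. Scrublet in scanpy 1.11.5 called 9 aorta cells (0.942%) and 2 lung cells (0.0350%). The latter was taken to mean that it had not worked, no doublets were removed, and free RNA was not measured. Levels, ratios and shares have exact Poisson, conditional binomial and Clopper-Pearson 95% intervals (scipy 1.17.1), and the ratio script was tested on simulated data. Where no UMI was seen, the limit was set at 3 counts. Genes named from the lists reached 50 CPM and differed 4-fold or more between classes, up to 6 per list, with the 3 genes most like a member. Places, the ANGPTL4 promoter and copies (BLAST 2.17.0) came from the RefSeq annotation of Sscrofa11.1, and the promoters of the other genes are not reported here.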

Additional observations from a re-analysis of the deposited data

Results flagged for a closer look

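ANGPTL4 was also present in barcodes that the limits on cells had left out of every comparison. In the 230 barcodes left out of the aorta library it was at 49.7 CPM (36.0 to 66.9, 43 UMIs), and in the 237 left out of the lung library at 108 CPM (71.6 to 156, 28 UMIs). These levels lie above the limit that a count of 0 allows, and their order between the libraries was that of the endothelial-like cells. The other 5 genes had at most 3 UMIs in the barcodes left out of either library.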

How the results depend on the processing

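No paired analysis was possible because each tissue had 1 library, and no library could be left out. The 7 main ratios, of ANGPTL4 and FABP5, were recomputed under 14 alternatives and 2 that were chosen after seeing the data (shallow and macrophage-led clusters kept under the name of the marker rule, and the cell richest in the gene left out of each class). Of 112 values, 97 lay inside the counting interval of the reported ratio, 15 lay outside it and none changed direction. With only cells under 5000 detected genes, the ratio of collagen-high to endothelial-like cells in the aorta was 0.397 for ANGPTL4 and 6.04 for FABP5, and the lung to aorta ratio of endothelial-like cells was 5.02 and 1.80. With classes from the marker UMIs of each cell, the collagen-high ratio was 0.351 (aorta) and 0.164 (lung) for ANGPTL4 and 8.56 (aorta) for FABP5, and the lung to aorta ratio of FABP5 was 1.18. Without the 5% of cells with the highest Scrublet scores, the lung ANGPTL4 ratio was 0.156. The FABP5 ratio of lung macrophage-transcript to endothelial-like cells was 7.63 and 26.7 with gates of 1 and 5 UMIs and 6.86 without the richest cells. It was 4.71 for the whole cluster led by macrophage genes, with its 74 cells outside the gate. Leaving out the richest cells gave 17.0 for FABP5 in aorta collagen-high cells and 2.39 for its lung to aorta ratio. Of the 184 values of the other ratios, 170 lay inside the interval. Among ratios whose interval left out 1, 1 value changed direction. This was FABP4 in lung collagen-high over endothelial-like cells, at 0 with classes from each cell, against 3 and 2 UMIs. Among ratios whose interval held 1, LPL in aorta collagen-high over endothelial-like cells went from 0.678 to 2.42 with those classes. ANGPTL4 in lung macrophage-transcript over endothelial-like cells went from 0.923 to 1.05 with a mitochondrial limit of 10%. The causes were not tested. Depth limits FABP4, GPIHBP1, LPL and PPARG, which had few UMIs, and the 19 macrophage-transcript cells.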

Other observations

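LRP1, a receptor that takes up remnant lipoproteins, was at 32.1 CPM in lung and 31.7 CPM in aorta collagen-high cells, against 2.15 and 3.40 CPM in the endothelial-like cells. OLR1, the receptor for oxidized low density lipoprotein, was at 35.8 CPM in aorta and 1.33 CPM in lung endothelial-like cells. PCSK6, a convertase that cleaves lipases, was at 39.3 CPM in lung and 38.2 CPM in aorta collagen-high cells, against 2.82 and 2.17 CPM in the endothelial-like cells. CEBPD, a transcription factor of adipogenesis, was lower in collagen-high cells of the lung (7.51 against 23.9 CPM) and the aorta (7.90 against 37.3 CPM). FABP3, the fatty acid binding protein of muscle, was at 202 CPM in aorta collagen-high cells and 101 CPM in aorta endothelial-like cells (ratio 2.01, 1.89 to 2.12), and the lung ratio was in the other direction, at 0.640 (0.580 to 0.704). These genes were chosen from the lists after their values were seen.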
